A study of Homo sapiens with 18 samples.

Results

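The replication-dependent histone genes are the clustered genes for the linker histones H1-1 to H1-6 and for the core histones H2A, H2B, H3 and H4. Members were chosen by gene name alone (H1-1 to H1-6 and every numbered H2AC, H2BC, H3C and H4C symbol). The annotation holds 69 of them. The table of cytoplasmic and polysomal RNA lists 33 of these among 15747 genes, 3 linker and 30 core genes, and the whole-cell table lists 66 among 44682. The 69 include H2AC25 and H2BC26. RefSeq gives H2AW and H2BU1, the names the files use, as other names of these genes. They are therefore counted with the members for sequence, codons and position, but not among the 33 or 66 measured.

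RNA was sequenced from DU145, a line from a metastatic prostate carcinoma, kept for 24 h in GC7 at 40 µM or in vehicle. GC7 blocks deoxyhypusine synthase, the enzyme that begins the hypusine modification of eIF5A, a translation elongation factor. The groups were GC7 and vehicle heavy polysomal RNA, GC7 and vehicle cytoplasmic RNA, and GC7 and vehicle whole-cell RNA, with 3 libraries in each of the 6 groups. Before hypotonic lysis all cells of the fractionated arms received emetine, which holds ribosomes on mRNA, and nuclei and mitochondria were pelleted from the lysate. This is 1 cell line, and the labels do not say whether the libraries of a group came from separate cultures, so p-values reflect library-to-library spread alone, possibly technical. The values are the authors' comparison tables without per-library values, so no SD between replicates can be given and the depth of each library is unknown. Neither table states its numerator. The authors' category word DOWN was read as lower with GC7, and the whole-cell values were reversed in sign because 149 of the 162 genes called in polysomes and past 1 log2 unit had the opposite sign there as deposited. On the other reading every direction below turns round.

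Replication-dependent histone mRNAs end in a conserved stem-loop in place of a poly(A) tail. The stem-loop binding protein, SLBP, recognises it and serves in 3′ end formation, export, translation and decay of these mRNAs. They build up during S phase, when new DNA has to be packed into nucleosomes, and are degraded within minutes to hours once DNA synthesis stops. Core histones form the nucleosome, and linker histones bind the DNA that enters and leaves it. Some members, among them H1-2, H2AC6, H2BC4, H2BC5, H2BC12 and H2BC21, are known to make polyadenylated mRNAs as well. Replication-independent histones such as H3-3A are made throughout the cell cycle from ordinary polyadenylated mRNAs.

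The stem-loop is what all members share although the rule did not use it. It was searched for, by the histone stem-loop consensus, on the coding strand of the 150 genomic bases after the stop codon (GRCh38, GENCODE 44). All 69 members held a 16-base match without a mismatch, 22 to 67 bases after the stop codon with a median of 35. Among 19951 other genes, 26 (0.13%) held one with at most 1 mismatch, including H2AX. The most frequent form stood in 40 of the 69 members. The stem-loops of the 4 members called in polysomes and of the most counted linker, H2A and H4 genes are shown here with the stem-loop in capitals, 5 bases before it and 9 after it.
H1-5, chr6:27866788-27866817, minus strand: ccaaaGGCTCTTTTCAGAGCCacccagaga
H2BC11, chr6:27132312-27132341, minus strand: ctaacGGCTCTTTTAAGAGCCacccatgtt
H2BC12, chr6:27146357-27146386, minus strand: ccaaaGGCTCTTTTAAGAGCCacttaaatt
H3C10, chr6:27810511-27810540, plus strand: ccaaaGGCTCTTTTCAGAGCCacccacatg
H1-2, chr6:26055735-26055764, minus strand: caaaaGGCTCTTTTCAGAGCCaccactgat
H2AC19, chr1:149851569-149851598, plus strand: caaaaGGCTCTTTTCAGAGCCacccacgtt
H4C14, chr1:149833027-149833056, plus strand: ccaaaGGCCCTTTTTAGGGCCgaccacttg
H1-5, H3C10, H1-2 and H2AC19 carry the same 16 bases. H2BC11 and H2BC12 carry another loop, and the H4C14 stem differs from both. The most frequent form thus occurred in called and in uncalled genes.

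Promoter motifs differed between the classes. Promoters of 64 of the 69 members were found in the RefSeq table (GRCh38.p14, 250 bases before to 50 after the gene's start), and H2AC12, H3C11, H3C12, H4C1 and H4C3 were not matched. The H1 box AAACACA, on either strand, was present in 6 of 6 linker promoters, 1 of 16 H2A, 0 of 18 H2B, 2 of 11 H3 and 0 of 13 H4 promoters, against 5.76% of all 27305 promoters. The octamer ATTTGCAT, on either strand, stood in 14 of 18 H2B and 11 of 16 H2A promoters and in 0 of 6 linker promoters, against 1.80% of all. CCAAT, on either strand, was in 54 of 64 member promoters and in 35.7% of all, with H4 lowest at 3 of 13. TATAAA on the coding strand was in 37 of 64, against 7.71% of all. No other motif was searched for. The ends of some of these motifs can overlap by their letters, and each was counted on its own. Some H2A and H2B genes, such as H2AC11 and H2BC11, start close together on opposite strands. Their promoter stretches can overlap, so a match on either strand can be counted for both classes. The promoters of H1-5, the called linker gene, and of H2BC12, the most counted of the called core genes, are shown with these motifs in capitals.
H1-5, chr6:27867539-27867838, minus strand: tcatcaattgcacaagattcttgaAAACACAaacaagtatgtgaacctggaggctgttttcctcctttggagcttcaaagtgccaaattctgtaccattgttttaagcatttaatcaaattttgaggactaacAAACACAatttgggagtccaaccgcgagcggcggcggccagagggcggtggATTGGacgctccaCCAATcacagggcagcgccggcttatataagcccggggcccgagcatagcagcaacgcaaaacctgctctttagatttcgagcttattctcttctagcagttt
H2BC12, chr6:27146809-27147108, minus strand: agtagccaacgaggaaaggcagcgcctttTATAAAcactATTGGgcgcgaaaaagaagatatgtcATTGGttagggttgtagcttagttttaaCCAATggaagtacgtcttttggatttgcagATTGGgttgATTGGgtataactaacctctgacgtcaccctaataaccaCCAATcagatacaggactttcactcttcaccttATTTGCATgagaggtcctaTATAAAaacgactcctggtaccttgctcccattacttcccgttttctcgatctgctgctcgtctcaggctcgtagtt
The H1-5 promoter held AAACACA at 2 places, and the H2BC12 promoter held the octamer once, TATAAA at 2 places and CCAAT, read on either strand, at 6. These matches describe the letters only.

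The 69 genes lie on chromosome 6 (55 genes, between 25723397 and 27893891), chromosome 1 (13) and chromosome 12 (1, H4C16). Their coding sequences are short, from 98 to 226 codons. Linker genes are the longest, with a median of 217 codons against 126 for core genes. Lysine codons made up a median of 27.7% of linker coding sequences and 10.7% of core ones, and proline codons 9.21% and 3.91%. None of the 69 encodes 3 prolines in a row, a stretch at which ribosomes are known to need eIF5A, against 23.6% of 19794 coding sequences. Those 19794 are of every length, longer ones have more room for such a run, and the share among short ones was not computed. Genes of a class are also alike: all 13 H3 genes have 136 codons and the same share of proline codons. The 69 are therefore not separate observations. Pairs of prolines stood in 5 of 6 linker genes and in 0 of 63 core genes.

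Some members cannot be told apart by short reads. Of the 33 genes in the fraction table, 11 have at least 50% of their 50-base words in transcripts of another gene, among them H4C14 with H4C15 (100% each), H2AC18 with H2AC19 (100% and 99.8%) and H3C14 with H3C15, which the fraction table does not list. How reads were shared among such copies is not given in the sources used here, so values of these genes are uncertain one by one. The 11 members with 0% of words shared include H1-2, H1-4, H1-5 and H3C10, while H2BC11 stood at 9.98% and H2BC12 at 57.2%.

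Levels differed widely among members. Per kb of transcript, the mean normalized count of the authors' deposited table, taken over both treatments, was 11357 for H2BC12 in polysomes and 4375 in cytoplasm. For H1-2 it was 8918 in polysomes and 11338 in cytoplasm. H4C14, H2AC19 and H2AC6 followed in polysomes at 5253, 4224 and 3046 per kb. At the low end stood H3C1 at 30.1 per kb in polysomes and H4C3 at 30.9. H1-2 alone held 28.5% of all polysomal and 44.4% of all cytoplasmic counts of the 33 genes, and the other linker genes had few reads: H1-4 had a mean normalized count of 41.4 in polysomes and H1-5 of 57.2 per the authors' deposited table. In all, 16 of 33 members had a mean normalized count of at least 100 in polysomes and 18 in cytoplasm. The length of H2BC21 is that of its long polyadenylated transcript (2224 bases), which lowers its value per kb. H1-2, H2BC12 and H2AC6 are among the members known to make polyadenylated mRNAs as well. How far these levels reflect poly(A) tails rather than the amount of each mRNA was not tested. The same holds for the fold changes below, which may follow polyadenylated forms in part.

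**Figure D1:**
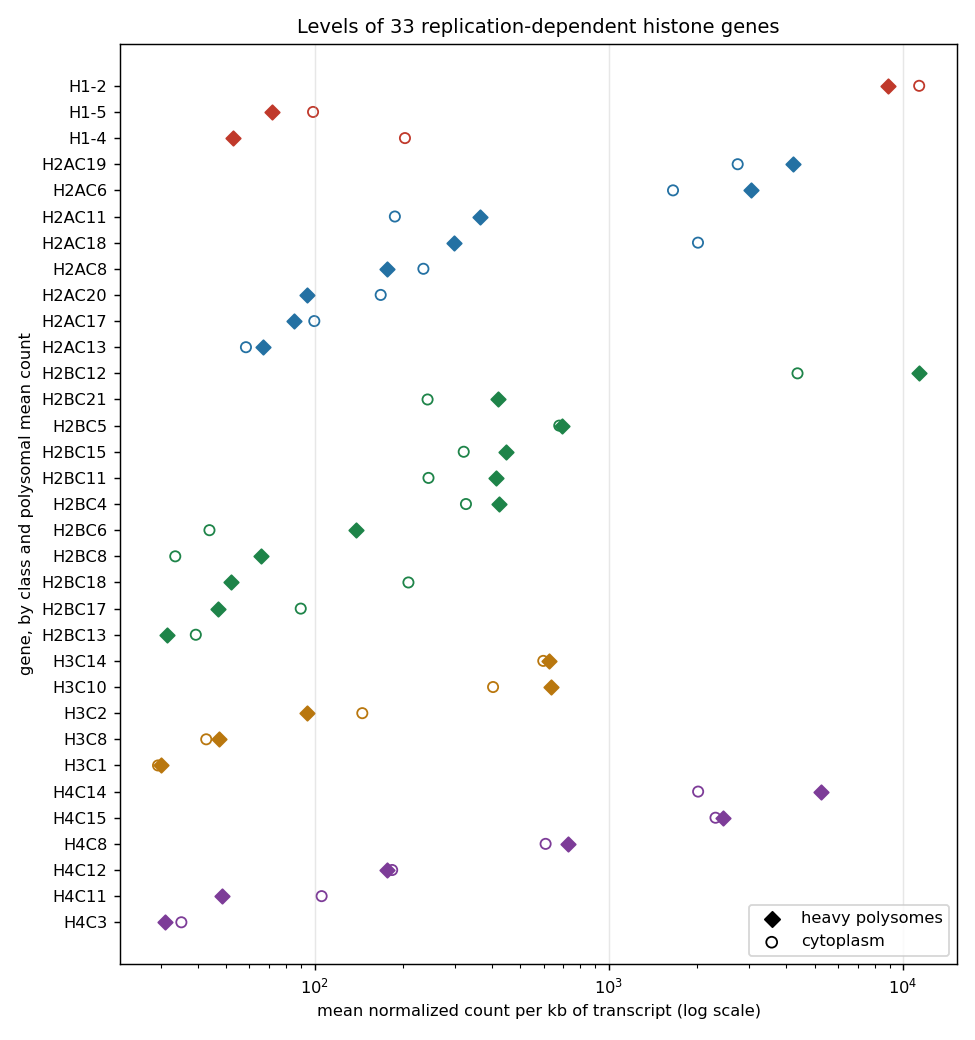
Mean normalized count per kb of transcript, over both treatments, of the 33 members in heavy polysomes (filled diamonds) and cytoplasm (open circles), on a log axis, by class and polysomal mean count. H2BC12 and H1-2 stand highest, and most other members lie at least an order of magnitude lower.

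The ratio of polysomal to cytoplasmic mean normalized counts had a median of 1.05 over members and of 1.42 over all 15747 genes. Each fraction was normalized on its own, so such ratios have meaning only beside each other. H2B genes had a median ratio of 1.39 and linker genes of 0.727. H1-4 was low at 0.26, and H2BC12 (2.60) and H4C14 (2.61) were among the highest. The sum of H4C14 and its copy H4C15 gave 1.79, and H2BC12 shares 57.2% of its words with other genes. H2AC18 was lowest of all at 0.148, but the sum of it and its copy H2AC19 gave 0.953.

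In heavy polysomes the question was which mRNAs changed on translating ribosomes. Polysomal values of histone mRNAs lay below zero, lower with GC7, in 30 of 33 members, against 51.5% of all 15747 genes. Members have short coding sequences, and of the 2268 genes with one under 700 bases, 1586 lay below zero. Called lower were 4 of 33 members, or 12.1%, against a background of 5.48% of all genes (the authors' adjusted p under 0.05), and 0 members were called higher, against 5.61%. At an unadjusted p under 0.05, 16 of 33 members were lower, against 12.1% of all genes, and 0 were higher, against 11.2%. The median over members per the authors' deposited table was -0.20 on the log2 scale, against 0.00 over all genes. In bulk RNA, fewer cells in S phase and less histone mRNA per cell cannot be told apart. Polysomal values alone also do not separate these from a change in the share of each mRNA on ribosomes.

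H1-5, a linker histone, was the lowest member. Its polysomal log2 fold change per the authors' deposited table was -1.28 with an SE of 0.39 (adjusted p = 0.0014), or 0.412 of the vehicle level. The mean normalized count and the unshrunken fold change together imply levels of 30.3 with GC7 and 84.1 with vehicle, so the call rests on few reads. H2BC11, a core H2B gene, stood at -0.72 (SE 0.26, adjusted p = 0.00684) per the authors' deposited table, with implied levels of 141 with GC7 and 255 with vehicle. H2BC12, the most counted H2B gene, stood at -0.45 (SE 0.15, adjusted p = 0.00986) per the authors' deposited table, with implied levels of 4622 with GC7 and 6621 with vehicle. H3C10, a core H3 gene, stood at -0.45 (SE 0.21, adjusted p = 0.0405) per the authors' deposited table, with implied levels of 248 with GC7 and 368 with vehicle. These 4 span rare and abundant members. When |log2 fold change| above 1 was also required, H1-5 alone remained called. All 4 lie in the chromosome 6 clusters, as do most measured members, 25 there against 8 on chromosome 1. At an unadjusted p under 0.05 in polysomes, 10 of those 25 and 6 of those 8 were lower. The share over all genes was 12.1%. A difference between the chromosomes was not tested.

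Among linker genes, H1-2 and H1-4 did not pass. H1-2, the most abundant linker mRNA, stood at -0.07 (SE 0.13, adjusted p = 0.739) in polysomes per the authors' deposited table, with implied levels of 6273 with GC7 and 6764 with vehicle. H1-4 stood at -0.29 (SE 0.39, adjusted p = 0.181) per the authors' deposited table, with implied levels of 29.9 with GC7 and 52.9 with vehicle. The linker class therefore held both the lowest member and a member near zero that makes up nearly all of its reads. H1-2 outweighs the others so far that the summed implied polysomal level of linker genes was 6334 with GC7 and 6901 with vehicle, a ratio of 0.918.

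Linker genes were called lower in 1 of 3 cases, with a median of -0.29 per the authors' deposited table, and core genes in 3 of 30, with a median of -0.17. Over all genes 5.48% were called lower in polysomes, and 14.4% of those with a coding sequence under 700 bases. Such medians over 3 and 30 genes are a description, and the difference between the classes was not tested. Their order turned among genes with a mean normalized count of at least 100. There the linker value was -0.07, from H1-2 alone, and the core median -0.27 per the authors' deposited table. Summed over the 28 core genes whose unshrunken values could be recovered, the implied polysomal level was 13672 with GC7 and 18449 with vehicle, a ratio of 0.741. By class the ratio was 0.684 for H3, 0.714 for H2B, 0.751 for H4 and 0.794 for H2A, all below the linker ratio. The linker ratio is nearly that of H1-2 alone, although H1-5 had the lowest value of all 33 members per the authors' deposited table.

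For the class counts that follow, 51.5% of all genes were negative in polysomes and 5.48% called lower. Of the 2268 genes with a coding sequence under 700 bases, 1586 were negative and 14.4% called lower. H2A genes were negative in 8 of 8 cases with none called. H2AC19 stood at -0.29 (SE 0.15, adjusted p = 0.0926) and H2AC6 at -0.22 (SE 0.14, adjusted p = 0.203) in polysomes per the authors' deposited table. H2AC18 was given as -0.01 per the authors' deposited table beside an unadjusted p of 0.00763, so the deposited value there was shrunk to near zero and its size could not be recovered. H2AC11 stood at -0.11 (SE 0.16) per the authors' deposited table. H2B genes were negative in 9 of 11 cases, with 2 called. Beyond the 2 called, H2BC21 stood at -0.40 (SE 0.19, adjusted p = 0.0559) and H2BC5 at -0.07 (SE 0.14, adjusted p = 0.781) per the authors' deposited table, while H2BC15 was positive at 0.03 (SE 0.15). H3 genes were negative in 5 of 5 cases, with H3C2 at -0.62 (SE 0.44, adjusted p = 0.0635), H3C14 at -0.27 (SE 0.21, adjusted p = 0.21) and H3C8 at -0.10 (SE 0.22) per the authors' deposited table. H4 genes were negative in 5 of 6 cases. The copies H4C14 and H4C15 stood close to each other at -0.28 (SE 0.19, adjusted p = 0.166) and -0.26 (SE 0.23, adjusted p = 0.236), H4C8 at -0.25 (SE 0.20, adjusted p = 0.239), and H4C12 was positive at 0.05 (SE 0.19) per the authors' deposited table. The other members lay between -0.27 (H2BC4) and 0.03 (H2BC6) per the authors' deposited table.

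**Figure D2:**
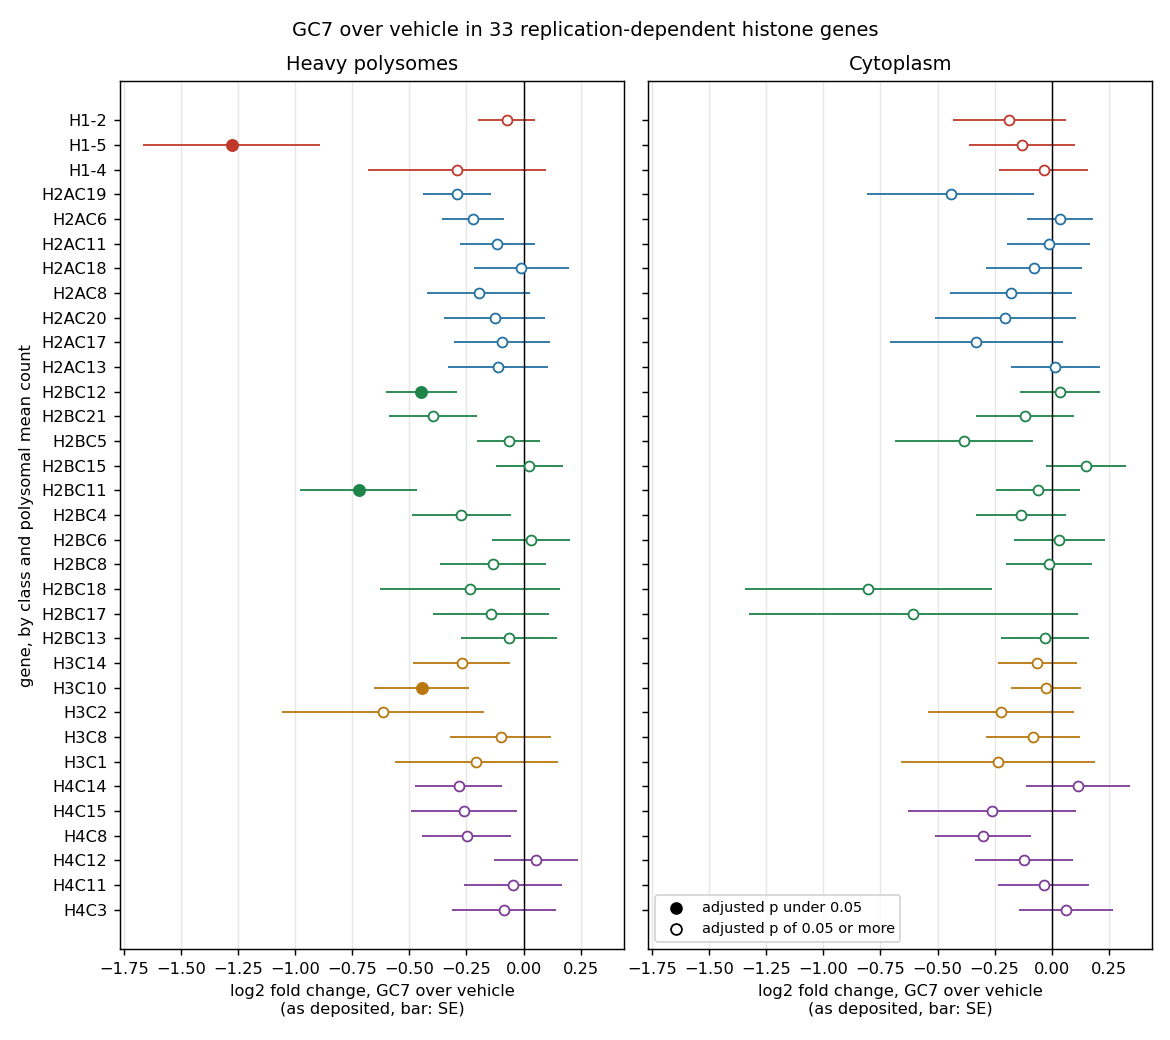
Log2 fold changes of GC7 over vehicle as deposited, with SE bars, for the 33 members in heavy polysomes (left) and cytoplasm (right), by class. Filled points have an adjusted p under 0.05: H1-5, H2BC12, H2BC11 and H3C10 in polysomes and none in cytoplasm.

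Short coding sequences move with this result. All members have coding sequences under 700 bases, and over all 2268 such genes the polysomal median per the authors' deposited table was -0.10, with 14.4% called lower and 27.0% lower at an unadjusted p under 0.05. The 12.1% of members called lower is thus below the share among short genes, and the 48.5% lower at an unadjusted p is above it. Members also had fewer reads, with a median polysomal mean normalized count of 91.1, against 1813 over the short genes. The part of coding length and of read depth in the result was not tested.

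**Figure D3:**
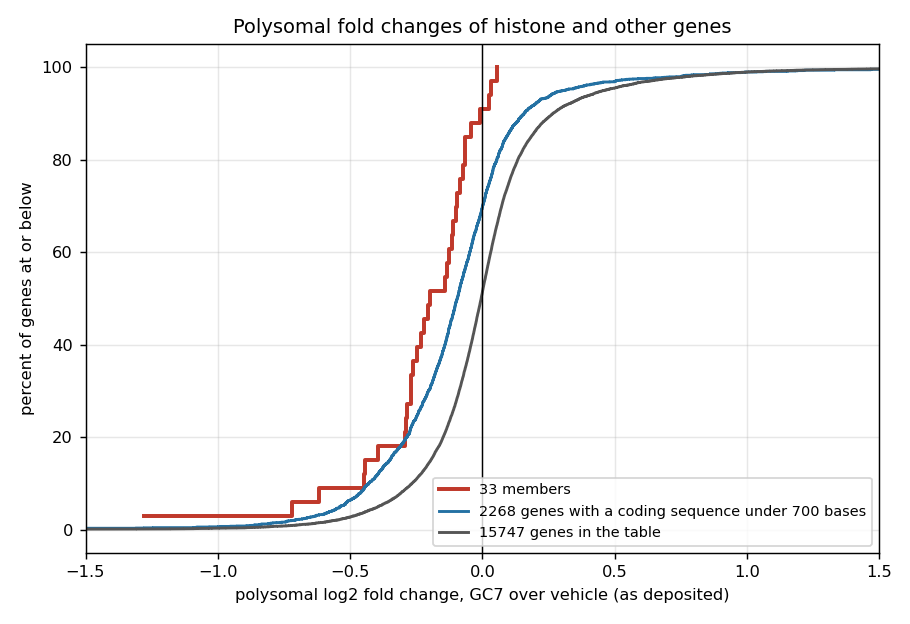
Percent of genes at or below each polysomal log2 fold change of GC7 over vehicle, as deposited, for the 33 members, for the 2268 genes with a coding sequence under 700 bases, and for all 15747 genes. At zero the curve of members has reached 90.9%, and that of all genes 51.5%. Of the 2268 genes with a short coding sequence, 1586 lay below zero.

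In cytoplasm, from which the polysomes were taken, the same genes gave no call: 0 of 33 members passed in either direction, against a background of 1.95% of all genes called lower and 2.29% higher per the authors' deposited table. At an unadjusted p under 0.05, 8 of 33 members were lower, against 8.13% of all genes, and 0 were higher, against 7.31%. A negative value was held by 26 of 33 members, against 51.3% of all genes, with a median of -0.08 per the authors' deposited table. Of the 2268 genes with a coding sequence under 700 bases, 1292 were negative in cytoplasm. Unshrunken, the polysomal median of members was -0.48 and the cytoplasmic -0.49, against -0.01 over all genes in each fraction.

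As deposited, the lowest cytoplasmic values belonged to H2BC18, H2BC17 and H2AC19. Unshrunken, H3C1 (-1.43 in polysomes, -1.47 in cytoplasm) and H2BC18 (-1.27 in polysomes, -1.20 in cytoplasm) were among the lowest 3 recovered values in both fractions. In the same order, their SE were 0.62 and 0.59 for H3C1 and 0.56 and 0.42 for H2BC18. Reads were few, with mean normalized counts of 15.3 and 14.9 for H3C1 and of 25.5 and 102 for H2BC18. H2BC18 stood at -0.80 (SE 0.54, adjusted p = 0.0795), H2BC17 at -0.61 (SE 0.72, adjusted p = 0.135) and H2AC19 at -0.44 (SE 0.37, adjusted p = 0.171) per the authors' deposited table. H1-5 stood at -0.13 (SE 0.23, adjusted p = 0.494) there, H2BC11 at -0.06 (SE 0.18), H3C10 at -0.03 (SE 0.15) and H2BC12 at 0.04 (SE 0.17) per the authors' deposited table. The 4 members called in polysomes thus lay near zero in cytoplasm as deposited. Shrinkage is strong at these SE, however, and the unshrunken cytoplasmic value of H1-5 was -0.68 with an SE of 0.45. H1-2 stood at -0.18 (SE 0.25, adjusted p = 0.444) in cytoplasm per the authors' deposited table, with implied levels of 6784 with GC7 and 9792 with vehicle, and H1-4 at -0.04 (SE 0.19). Summed implied cytoplasmic levels were 6982 with GC7 and 10070 with vehicle for linker genes, a ratio of 0.693. For core genes they were 9136 with GC7 and 11142 with vehicle, a ratio of 0.82. By class the cytoplasmic ratio was 0.68 for H2A, 0.834 for H3, 0.905 for H4 and 0.934 for H2B. The linker ratio thus lay below 3 of the 4 core classes in cytoplasm and above all 4 in polysomes, a difference that was not tested. The H2A and H4 sums are over unlike genes in the 2 fractions. H2AC18 and H4C11 are in the cytoplasmic sums but could not be recovered in polysomes.

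H4C14 and H4C15, whose transcripts share all 50-base words, had cytoplasmic values of opposite sign. Their unshrunken values were 0.79 (SE 0.52) for H4C14 and -0.82 (SE 0.40) for H4C15, while their summed implied level was 1669 with GC7 and 1747 with vehicle. The summed ratio of the pair was 0.955, between the values of its copies. H4C8, an H4 gene without shared words, stood at -0.30 (SE 0.21, adjusted p = 0.245) in cytoplasm per the authors' deposited table.

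Translational efficiency, the polysomal minus the cytoplasmic response, asked whether ribosome loading changed beyond mRNA abundance. It did not pass for any of the 31 members with recovered values: 0 were called in a normal test with Benjamini-Hochberg adjustment over 15669 genes, of which 0% were called. At an unadjusted p under 0.05, 1 member was lower, against 1.05% of all genes, and 0 were higher, against 1.09%. That member was H4C14, at -1.20 (SE 0.56) with an unadjusted p of 0.0317 and an adjusted p of 0.9996 in the normal test. Its copy H4C15 stood at 0.36 (SE 0.46). Values were negative in 20 of 31 members, or 64.5%, against 49.0% of all genes and 60.9% of the 2263 genes with a coding sequence under 700 bases. The median was -0.13, against -0.08 over those short genes. The linker genes gave 0.42 for H1-2 (95% interval -0.28 to 1.12), -0.44 for H1-4 (-1.90 to 1.02) and -0.79 for H1-5 (-1.93 to 0.34). The called core genes gave -0.66 for H2BC12 (95% interval -1.37 to 0.06), -0.61 for H2BC11 (-1.46 to 0.23) and -0.50 for H3C10 (-1.11 to 0.10). All 4 members called in polysomes were negative. They were picked by low polysomal values, which enter the difference, so a negative sign was favoured in advance. Each of the 4 intervals includes zero, so neither a lower efficiency nor its absence was shown. The intervals are wide, with a median SE of 0.51 over members and 0.35 over all genes. They take the errors of the 2 fractions as independent, although polysomes were taken from the cytoplasm. At an unadjusted p under 0.05 this normal test passed 335 of 15669 genes, fewer than that threshold alone would give. The intervals may therefore be too wide and the test too strict, so the absence of calls says little.

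**Figure D4:**
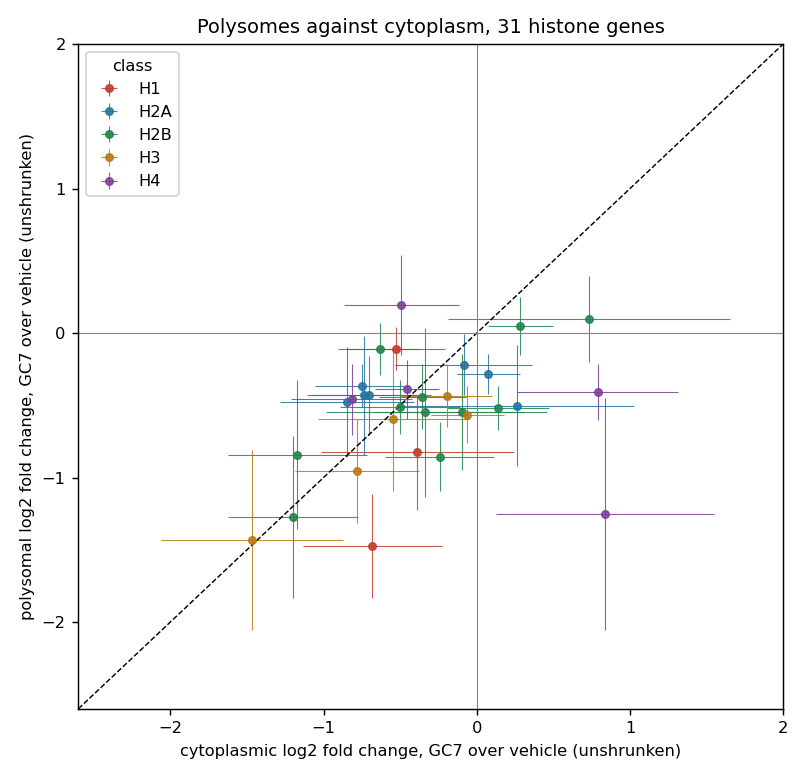
Unshrunken log2 fold changes of GC7 over vehicle in polysomes (vertical axis) and cytoplasm (horizontal axis) for the 31 members recovered in both, coloured by class, with SE bars and the line of equal change dashed. Most members lie below zero on both axes, and 20 of 31 lie below the dashed line.

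Whole-cell RNA includes the nucleus. With signs reversed, 41 of 66 members per the authors' deposited table were positive, against 29.6% of all 44682 genes. Of the 61 members with reads 67.2% were positive, against 49.6% of the 26661 genes with reads. None of the 66 passed Benjamini-Hochberg adjustment, against 0% of all genes in either direction. At an unadjusted p under 0.05, 1 member was lower, against 1.33% of all genes, and 0 were higher, against 1.66%. That member was H2BC14, an H2B gene, at -1.78 (unadjusted p = 0.0293) per the authors' deposited table, with a Benjamini-Hochberg adjusted p of 0.953 computed here. It is not listed in the fraction table. Of 66 members, 5 stood at the value shared by genes without reads and 18 at a value shared by at least 100 genes, as genes with few reads do.

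Of the 33 members also measured in the fractions, 23 were positive in whole cells, against 46.9% of all genes also in the fractions, with a median of 0.22 per the authors' deposited table, against -0.04 over all 14099 shared genes. Unadjusted p-values of the 33 ranged upward from 0.274, at H4C15 (0.52 per the authors' deposited table). H2AC6 was highest of them at 0.95 (unadjusted p = 0.334) per the authors' deposited table. H1-5 stood at -0.32, H1-2 at -0.06 and H1-4 at 0.44 there, and the called core genes H2BC11, H2BC12 and H3C10 at 0.55, 0.05 and -0.11 per the authors' deposited table. Negative in both fractions, whatever the whole-cell sign, were 25 of 33 members. Negative in both fractions and positive in whole cells were 17 of 33 members (51.5%), against 12.6% of the 14099 genes. With the whole-cell sign as deposited, these shares were 8 of 33 (24.2%) and 24.7%. Such a joint share also depends on how many genes held each sign on its own, and this was not separated. The whole-cell table gives no SE, and the difference from the fractions was not tested. Medians were 0.19 over the 6 linker genes and 0.22 over the 55 core genes with reads per the authors' deposited table.

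**Figure D5:**
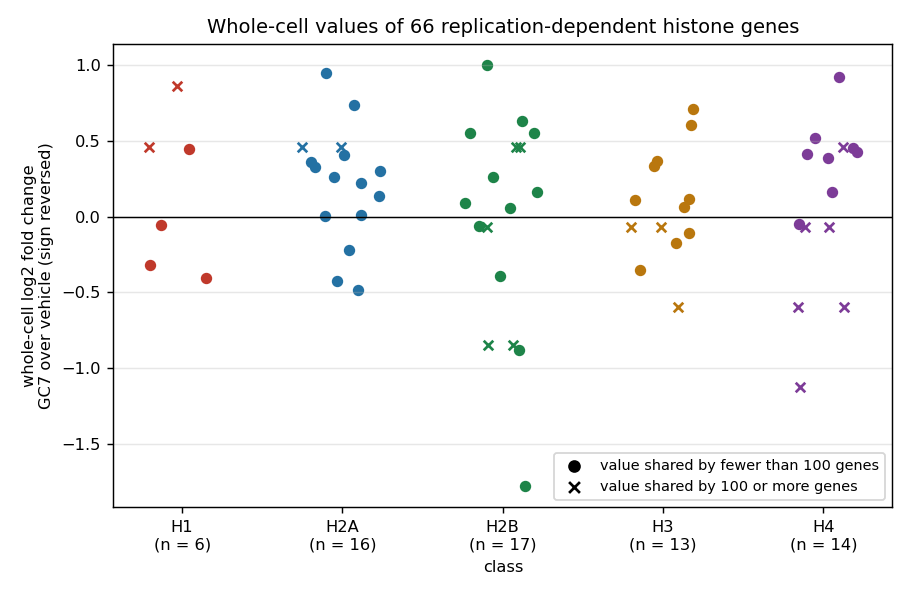
Whole-cell log2 fold changes of GC7 over vehicle, sign reversed, for 66 members by class. Crosses mark the 18 members at a value shared by at least 100 genes, and dots the others. Dots lie on both sides of zero in every class, from -1.78 to 1.00.

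Members known to make polyadenylated mRNA were looked at apart. All 6 were negative in polysomes, with a median of -0.25 per the authors' deposited table and 1 of 6 called (H2BC12). The 27 other members had a median of -0.14 there, with 24 negative and 3 called (11.1%). Over all genes 51.5% were negative and 5.48% called lower. In cytoplasm the medians were -0.13 and -0.08 per the authors' deposited table. The 6 had more reads, with a median polysomal mean normalized count of 1258 against 57.2, and the part of this in their values was not tested. By position, 22 of 25 members on chromosome 6 and 8 of 8 on chromosome 1 were negative in polysomes, against the same 51.5% of all genes. Among the 2268 genes with a coding sequence under 700 bases, 1586 were negative there.

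Histones listed as replication-independent were partly lower too. Of 12 measured, 4 (33.3%) were called lower in polysomes, against 5.48% of all genes, and none higher, and none was called in cytoplasm. Among the 2268 genes with a coding sequence under 700 bases, 14.4% were called lower in polysomes. Coding length was not taken into account for these 12. H2AW, the other name of H2AC25, stood in this list. H2AX, a variant that marks DNA breaks and whose gene also carries the stem-loop, stood at -0.54 (SE 0.15, adjusted p = 0.00115) in polysomes per the authors' deposited table. H2AZ1, a variant found at promoters, stood at -0.50 (SE 0.14, adjusted p = 0.00139) in polysomes and at 0.00 (SE 0.15) in cytoplasm per the authors' deposited table. H3-3A, which encodes the replacement histone of H3, stood at -0.44 (SE 0.13, adjusted p = 0.00422), and CENPA, the centromeric form of H3, at -0.35 (SE 0.15, adjusted p = 0.0477) in polysomes per the authors' deposited table. H1-10, a replication-independent linker gene, had a positive polysomal value of 0.27 (SE 0.17, adjusted p = 0.15) per the authors' deposited table. H2AW, whose gene carries the stem-loop, stood at 0.00 (SE 0.15, adjusted p = 0.996) in polysomes per the authors' deposited table. No stem-loop match was found after the stop codons of H2AZ1, H3-3A and H1-10.

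Factors that act on histone mRNA were read from 2 lists, without regard to coding length. SLBP stood at -0.31 (SE 0.13, adjusted p = 0.0418) in polysomes and at -0.07 (SE 0.13, adjusted p = 0.77) in cytoplasm per the authors' deposited table, and was the single gene called among 14 of histone mRNA 3′ end formation (7.14%, against 5.48% of all genes called lower). NPAT, the coactivator that cyclin E and CDK2 switch on at histone clusters, stood at -0.20 (SE 0.21, adjusted p = 0.35) in polysomes, and LSM11, a subunit of the U7 particle, at -0.04 (SE 0.14, adjusted p = 0.878) per the authors' deposited table. Among 20 genes of histone mRNA translation and decay, 4 (20.0%) were called lower in polysomes, against 5.48% of all genes, 1 (5.00%) higher, against 5.61%, and none in cytoplasm. LSM3 and LSM6, of the ring that binds the 3′ end of decaying mRNA, stood at -0.58 (SE 0.19, adjusted p = 0.00462) and -0.51 (SE 0.19, adjusted p = 0.0128) per the authors' deposited table. MIF4GD, which links SLBP to translation initiation, was higher at 0.38 (SE 0.14, adjusted p = 0.02) per the authors' deposited table. ERI1, the exonuclease that trims the stem-loop, stood at -0.06 (SE 0.12) and UPF1, a helicase of decay, at -0.26 (SE 0.17, adjusted p = 0.188) in polysomes per the authors' deposited table.

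Of 12 genes of histone gene transcription, 3 (25.0%) were called lower in polysomes, against 5.48% of all genes, and 1 (8.33%) in cytoplasm, against 1.95%, with E2F1 at -0.57 (SE 0.17, adjusted p = 0.00189) in polysomes and -0.68 (SE 0.20, adjusted p = 0.00401) in cytoplasm per the authors' deposited table. CDK2 stood at -0.42 (SE 0.17, adjusted p = 0.0243) and CCNE2 at -0.48 (SE 0.24, adjusted p = 0.0417) in polysomes per the authors' deposited table. Of 23 histone chaperones, 2 (8.70%) were called lower in each fraction, against 5.48% of all genes in polysomes and 1.95% in cytoplasm, and none higher. ASF1B, which hands new H3 and H4 to the assembly factor, stood at -1.08 (SE 0.14) in polysomes and -0.90 (SE 0.17) in cytoplasm per the authors' deposited table. Of 26 S phase DNA synthesis genes, 9 (34.6%) were called lower in polysomes and 6 (23.1%) in cytoplasm, with medians of -0.28 and -0.23 per the authors' deposited table and none called higher. SLBP stands in this list too. Of the 26 genes, 24 had a negative value in cytoplasm and 23 in polysomes, against 51.3% and 51.5% of all genes. Most histone genes were negative in each fraction too. In whole cells the median of this list was -0.48 per the authors' deposited table, sign reversed, against 0.22 over the 33 histone genes. The part of these genes in the histone result was not tested.

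The labelled cell type was checked in the fraction table. Keratins KRT8, KRT18 and KRT19, EPCAM and CDH1 were listed, with polysomal mean normalized counts from 268 for CDH1 to 26823 for KRT18 per the authors' deposited table. KLK3, PTPRC, PECAM1 and DCN were not listed there, and COL1A1 had a mean normalized count of 56.5. Summed mean normalized counts of the 33 members came to 22856 in polysomes and 18665 in cytoplasm.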

How the data were processed

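RNA-seq tables of GC7 and vehicle DU145 cells were used as deposited. STAR 2.7.8a, Salmon 1.4.0 and GRCh38 are named in the submitters' processing notes, with no role or order given in the sources used here. Per the file headers, the authors deposited log2 fold changes and unadjusted p-values for whole cells, and mean normalized counts over a fraction's libraries (a score), log2 fold changes, SE (also a score), p-values and adjusted p-values for cytoplasm and polysomes. The tables hold comparisons and no per-library columns, so no count test was run here. The deposited log2 fold changes for cytoplasm and polysomes are drawn toward zero, because dividing them by their SE does not return the p-values beside them. A Cauchy prior (scale 0.195 in cytoplasm and 0.205 in polysomes, natural log) was fitted to those p-values, and unshrunken values were computed. Their z lay within 0.1 of that from the p-value in 97.4% of cytoplasmic and 99.5% of polysomal genes. Those more than 0.5 away were dropped, which took H2AC18 and H4C11 out in polysomes. Implied levels split the mean normalized count by the unshrunken fold change, assuming 3 libraries a group. Translational efficiency used a normal test with independent errors.

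For cytoplasm and polysomes the adjusted p-values are those the authors deposited, and for whole cells Benjamini-Hochberg adjustment was computed here. Calls are at 0.05. Members, lists and the rule for named genes (every linker gene, every called member, the 4 most counted members of each core class, and called or fixed pathway genes) were chosen with earlier results of these data known. H2BC17, H2BC18, H2BC14, H2BC4, H2BC6, H3C1 and H4C3 lie outside that rule and were named after their values were seen. Python 3.11.15, pandas 2.3.3, scipy 1.17.1 and GENCODE 44 were used. Some genes of the lists are not reported here. Alternatives are given in the closing section.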

Additional observations from a re-analysis of the deposited data

How the results depend on the processing

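Of 40 recomputed values of the main results, 33 kept the main count within 1.5 times or moved the main median by less than the median SE of its genes, which for whole cells was implied from the p-values. Such a move can turn the sign of a median near zero, as it did for 3 whole-cell values. These were the linker and core medians with the sign as deposited, at -0.19 and -0.22 against 0.19 and 0.22, and the linker median over members also in the fractions, at -0.06. The count of members called in polysomes was 4, and it was 1 when a log2 fold change over 1 in size was also asked. It was 3 at an adjusted p under 0.01, among members with a mean normalized count of at least 100, and among members with under 50% of words shared, an alternative chosen after seeing the data, and 4 with Benjamini-Hochberg over all genes. In cytoplasm and in translational efficiency every alternative gave 0 calls among members, also with an error correlation of 0.5, under which 20 of 15669 genes were called. In whole cells, where adjustment gave 0, an unadjusted p under 0.05 gave 1 member. Unshrunken values moved the medians to -0.82 for linker and -0.47 for core genes in polysomes and to -0.53 for linker and -0.47 for core genes in cytoplasm, since deposited values are drawn toward zero. The linker median in translational efficiency was -0.44 and turned to 0.42 among genes with a mean normalized count of at least 100 in both fractions, where H1-2 alone remained. No replicate could be left out. No paired analysis was possible because the tables hold no per-library values. Depth limits H1-4 and H1-5, whose polysomal mean normalized counts were 41.4 and 57.2.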
